A study of Homo sapiens with 6 samples.

Results

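The genes described here are 7 members of the amino acid stress response: SLC7A5, SLC7A1 and SLC7A11, which carry amino acids across the cell surface, PSPH, which makes serine, MARS (now named MARS1), which loads methionine onto its tRNA, and the stress effectors DDIT4 and STC2. They were taken by gene symbol, and each had 1 row, which was a single RefSeq transcript, among the 9718 gene symbols of the deposited table. All 7 had enough reads to be tested. The cells were Huh7, a hepatocyte-like human liver cancer line grown in DMEM and harvested 1 week after puromycin selection. In 3 libraries the cells carried a short hairpin RNA (shRNA) against ABL1, and in 3 they carried a scrambled shRNA. Both groups had thus been selected for an shRNA construct. The labels state neither how many ABL1 shRNA sequences were used nor whether the replicates were separate cultures, so the p-values reflect differences among these libraries that may be no more than technical.

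When amino acids run short, uncharged tRNA activates the kinase GCN2, which phosphorylates the translation factor eIF2. Most translation then slows, while the transcription factor ATF4 is made in larger amounts and switches on genes for amino acid uptake, amino acid synthesis and tRNA charging. The same arm is used by other stresses, such as misfolded protein in the endoplasmic reticulum. In parallel the kinase complex mTORC1 at the lysosome reads amino acid supply through its own sensors, and DDIT4 restrains it.

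The libraries held 6651413 to 7952645 counted reads in the knockdown group and 7713451 to 10487862 in the scrambled group. ABL1 itself had a transcript, NM_007313, with 14, 9 and 9 reads in knockdown libraries, against 88, 64 and 76 in scrambled libraries, while its other row, NM_005157, had 18, 17 and 24 reads in knockdown libraries, against 11, 6 and 11 in scrambled libraries. Their log2 changes were -2.62 (limma adjusted p = 4.11e-06) and 1.15 (limma adjusted p = 0.0180), the second of which was not called without knockdown replicate 3 (0.0738) or scrambled replicate 2 (0.0508). Hepatocyte-lineage markers were abundant. Of 5 tested 3 fell, ALB (log2 change -0.42), TF (-0.44) and APOB (-0.20), and 0 rose by limma's adjusted test or at an unadjusted p under 0.05, and AFP was at -0.10 (limma adjusted p = 0.454), with 220476 ± 16956 normalized counts in knockdown libraries and 235839 ± 21106 in scrambled libraries (SD, n = 3 each). Of 6 fibroblast markers measured 4 rose (COL1A2, COL3A1, LUM and PDGFRA) and COL1A1 fell. The summed level of the 6, most of it COL1A2, was 13259 to 14609 normalized counts in knockdown libraries, against 8912 to 9908 in scrambled libraries. Of 5 endothelial markers 3 fell (PECAM1, CDH5 and STAB2) and VWF rose (1.08), and they summed to 138 to 153 normalized counts in knockdown libraries, against 195 to 222 in scrambled libraries. Of 3 immune markers LYZ rose (0.21), while LAPTM5 (-2.39) and FCER1G (-0.79) fell. Their sum, nearly all of it LYZ, was 6544 to 7489 in knockdown libraries, against 5714 to 6331 in scrambled libraries. DCN, ACTA2, KDR, PTPRC, CD68, CD3E and TYROBP were not analysed here. Per marker list 60% to 100% of the tested genes were called, beside 51.9% of all transcripts, 24.5% as higher and 27.4% as lower. The part of these markers in the results was not tested. The cells were a single line, Huh7, so the markers were not read as amounts of other cell types. In bulk RNA, fewer cells expressing a marker and less RNA per cell cannot be told apart.

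The response did not move as a block. DDIT4, SLC7A5, STC2 and SLC7A1 were lower in the knockdown libraries, and SLC7A11, PSPH and MARS were higher. A normalized count is the read count on the authors' scale, and a log2 change is the knockdown mean minus the scrambled mean of log2(normalized count + 1). All 7 passed limma's test at a Benjamini-Hochberg adjusted p under 0.05 over all 8600 transcripts tested. The same test called 51.9% of all transcripts, 24.5% as higher and 27.4% as lower, and the members were listed with these results known, so nothing is read from their count. In all 7 the knockdown libraries stood apart from the scrambled libraries without overlap. So they did for 58.9% of all transcripts, 28.2% with the knockdown libraries higher and 30.7% with them lower.

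**Figure D1:**
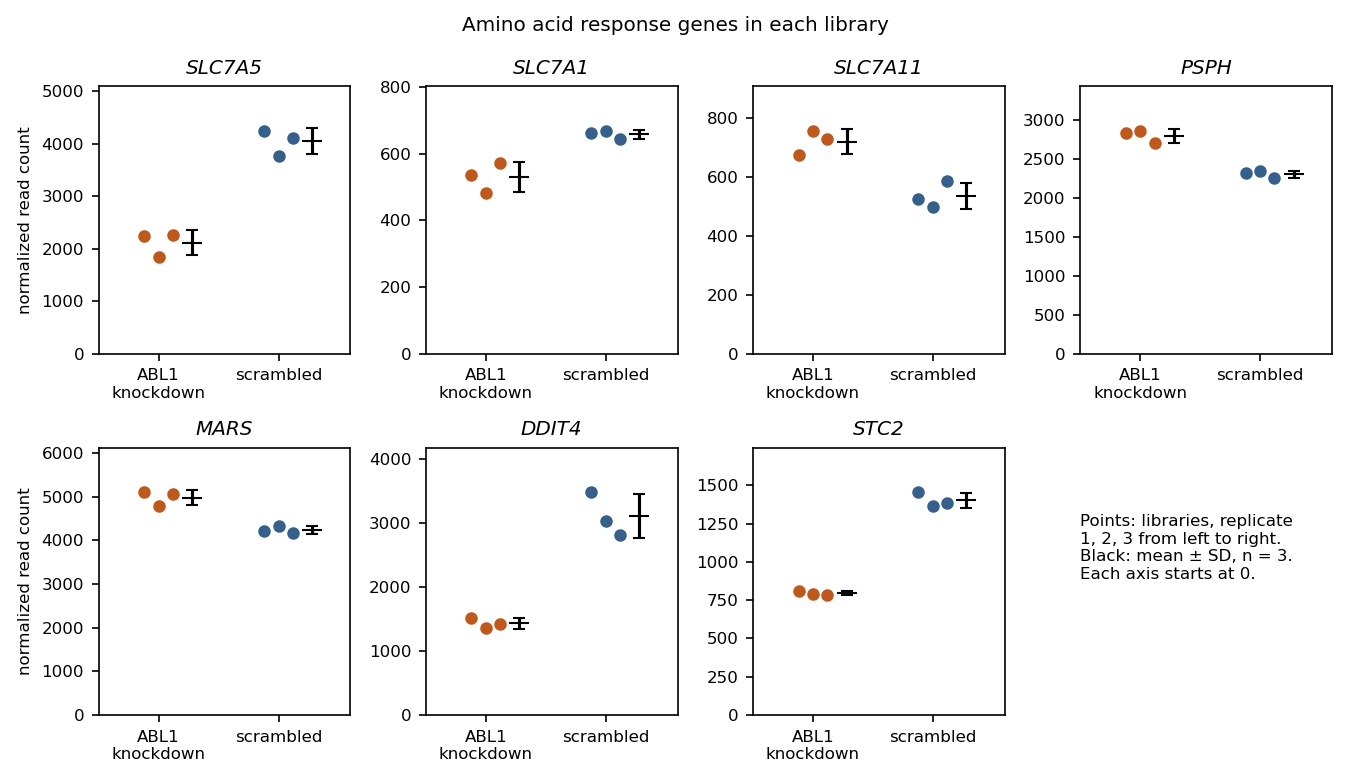
Normalized read count (y axis, from 0) of each of the 7 genes in each of the 3 ABL1 knockdown and 3 scrambled libraries. Points are libraries and black bars the mean ± SD. The SLC7A5, SLC7A1, DDIT4 and STC2 points are lower in the knockdown libraries and the SLC7A11, PSPH and MARS points are higher, with no overlap between groups.

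SLC7A5, also called LAT1, brings leucine and other large neutral amino acids into the cell in exchange for glutamine. It had 2242, 1837 and 2262 normalized counts in knockdown libraries, against 4252, 3773 and 4115 in scrambled libraries. Every knockdown library lay far below every scrambled one, and the second knockdown library was the lowest of all. The log2 change came to -0.94 (SE 0.09, limma adjusted p = 2.79e-06), and the mean in scrambled libraries was 1.91 times that in knockdown libraries. The transcript, NM_003486, lies on the minus strand of chromosome 16 (87830023 to 87869488, GRCh38) and has 10 exons. SLC7A5 has partial copies in the genome, and the sources used here do not say how shared reads were counted. The copy SLC7A5P1 had 7.54 ± 4.53 normalized counts in knockdown libraries and 21.5 ± 1.73 in scrambled libraries, and SLC7A5P2 had 77.9 ± 30.2 and 98.2 ± 26.5, so neither came near the counts of SLC7A5 itself.

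SLC7A1, or CAT-1, carries arginine and lysine. It had 536, 484 and 573 normalized counts in knockdown libraries, against 663, 670 and 645 in scrambled libraries. The gap between the groups was narrow beside that of SLC7A5, and the knockdown libraries were the more scattered. The log2 change was -0.32 (SE 0.09, limma adjusted p = 0.0118). This call depended on the scaling: with libraries scaled to equal totals the change was -0.14 (limma adjusted p = 0.194), and with quantile normalization -0.21 (limma adjusted p = 0.0727). Equal totals moved the median change of all transcripts by the same step, to 0.17 from 0.0018 with the authors' scale factors. Relative to the median of all transcripts under each scaling, SLC7A1 was at -0.32 with equal totals, -0.25 with quantile normalization and -0.32 with the authors' factors. NM_003045 lies on the minus strand of chromosome 13 (29509410 to 29595688) and has 13 exons.

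SLC7A11, or xCT, takes up cystine in exchange for glutamate and so feeds glutathione synthesis. It went the other way, with 673, 757 and 727 normalized counts in knockdown libraries, against 524, 497 and 585 in scrambled libraries. All 3 knockdown libraries exceeded the highest scrambled library. The log2 change was 0.43 (SE 0.09, limma adjusted p = 0.00225). NM_014331 lies on the minus strand of chromosome 4 (138164097 to 138242349) and has 12 exons.

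SLC7A5 and SLC7A11 are both light chains that pair with the same heavy chain, SLC3A2. The log2 ratio of SLC7A5 to SLC7A11 counts, which does not depend on library scaling apart from the pseudocount, was 1.73, 1.28 and 1.64 in knockdown libraries, against 3.02, 2.92 and 2.81 in scrambled libraries. SLC7A5 counts exceeded SLC7A11 counts in every library, and the excess was smaller in each knockdown library. The difference was -1.37 (exact two-sided permutation p = 0.1, the smallest that 3 against 3 libraries can give, and adjusted p = 0.3 over 3 ratios). SLC7A5 was lower and SLC7A11 higher in every knockdown library. The separation of the ratio and its p therefore follow from those 2 rows and are no further test. The heavy chain could not serve as a reference. The table holds SLC3A2 only as a non-coding transcript, NR_037193, with 10, 8 and 3 reads in knockdown libraries, against 5, 7 and 2 in scrambled libraries. On that row the log2 ratio to SLC3A2 differed by -1.53 for SLC7A5 (exact permutation p = 0.2, adjusted p = 0.3) and by -0.16 for SLC7A11 (exact permutation p = 0.8, adjusted p = 0.8), with SDs of 0.80 to 0.93 within groups.

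PSPH, phosphoserine phosphatase, catalyses the last step of serine synthesis. It had 2840, 2870 and 2704 normalized counts in knockdown libraries, against 2319, 2350 and 2260 in scrambled libraries. Replicates were tight in both groups, and the lowest knockdown library was well above the highest scrambled one. The log2 change was 0.28 (SE 0.07, limma adjusted p = 0.00412). NM_004577 lies on the minus strand of chromosome 7 (56011067 to 56051604) and has 8 exons. RefSeq lists 21 curated transcripts for PSPH and 1 for each of the other 6 genes, so the PSPH row is the only one of the 7 that shares its gene with other RefSeq transcripts.

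MARS, the cytosolic methionyl-tRNA synthetase, was the most abundant of the 7. It had 5108, 4780 and 5059 normalized counts in knockdown libraries, against 4215, 4341 and 4168 in scrambled libraries. The change was the smallest of the 7, with a log2 change of 0.23 (SE 0.07, limma adjusted p = 0.0109). Without the first knockdown library it was 0.21 and no longer called (limma adjusted p = 0.0561, the highest among the alternatives, whose lowest was 0.000147). NM_004990 lies on the plus strand of chromosome 12 (57487957 to 57516649) and has 21 exons.

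DDIT4, also called REDD1, inhibits mTORC1 through the TSC complex and is induced by ATF4, hypoxia, glucocorticoids and DNA damage. It had 1520, 1353 and 1412 normalized counts in knockdown libraries, against 3477, 3030 and 2812 in scrambled libraries. The scrambled libraries were spread more widely, yet the lowest of them was above every knockdown library. The log2 change of -1.12 (SE 0.09, limma adjusted p = 5.92e-07) was the largest among the 7, and 7.47% of all transcripts were called with a fall at least as large. NM_019058 lies on the plus strand of chromosome 10 (72273920 to 72276036) and has 3 exons.

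STC2, stanniocalcin-2, is a secreted glycoprotein that blocks the protease PAPP-A and rises under endoplasmic reticulum stress and hypoxia. It had 811, 792 and 786 normalized counts in knockdown libraries, against 1457, 1368 and 1382 in scrambled libraries. The knockdown libraries were close together, with an SD of 12.9 around a mean of 796. The log2 change was -0.81 (SE 0.08, limma adjusted p = 1.99e-06). NM_003714 lies on the minus strand of chromosome 5 (173314713 to 173329503) and has 4 exons.

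**Figure D2:**
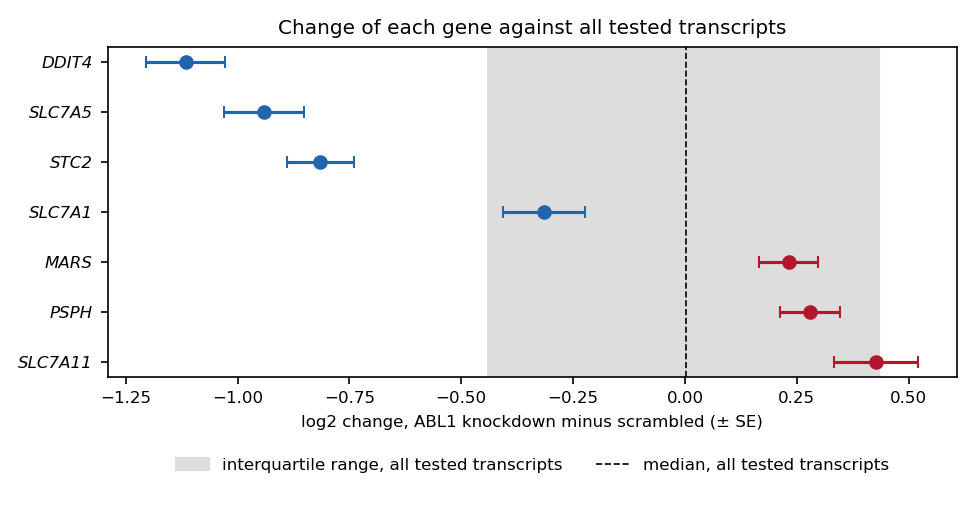
Log2 change of each gene, ABL1 knockdown minus scrambled, with its SE (x axis), ordered from the largest fall to the largest rise. Blue marks genes that fell and red genes that rose, and the grey band is the interquartile range of all 8600 tested transcripts, from -0.44 to 0.43. DDIT4, SLC7A5 and STC2 lie outside the band and the other genes inside it.

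The sizes of change fell into 2 ranges. DDIT4, SLC7A5 and STC2 lay below the interquartile range of all transcripts, where 7.65%, 10.4% and 13.0% of transcripts had a lower log2 change. SLC7A1, MARS, PSPH and SLC7A11 lay inside it, so that changes of their size were common in this comparison. All 7 transcripts were well expressed: their mean counts stood between percentile 70.3 (SLC7A1) and percentile 96.9 (MARS) of those tested.

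Normalized counts per kilobase of transcript, a level that can be compared between transcripts, put the members in a different order in the 2 groups. The PSPH value is that of a single transcript among 21 curated ones, so its place need not be that of the whole gene. In knockdown libraries MARS led with 1715 ± 60.9 per kilobase, followed by PSPH with 1316 ± 41.4, DDIT4 with 817 ± 48.5, SLC7A5 with 466 ± 52.9 and STC2 with 149 ± 2.41 (SD, n = 3). SLC7A11 (74.6 ± 4.43) and SLC7A1 (72.2 ± 6.08) came last and did not differ beyond their spread. In scrambled libraries DDIT4 led with 1777 ± 194 per kilobase, then MARS with 1460 ± 30.8, PSPH with 1084 ± 21.5, SLC7A5 with 892 ± 54.4, STC2 with 262 ± 8.86, SLC7A1 with 89.7 ± 1.80 and SLC7A11 with 55.5 ± 4.73. There the libraries of each gene did not overlap with those of its neighbours in this order. DDIT4 thus stood first in scrambled libraries and below MARS and PSPH in knockdown libraries. SLC7A1 stood above SLC7A11 in all 3 scrambled libraries, and in 2 of the 3 knockdown libraries.

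Promoter sequence was examined because ATF4 binds composite C/EBP-ATF elements, and because SLC7A5 is a known target of the E-box factor MYC and DDIT4 of hypoxia-inducible factors. RefSeq promoters (GRCh38.p14, 250 bases before to 50 after the start site) were on hand for SLC7A5, SLC7A1, MARS, DDIT4 and STC2. On either strand, TGATGNAA, the core of the C/EBP-ATF element, was found in SLC7A1 and MARS and is in 3.62% of 35116 promoters of this length. The E-box CACGTG was found in SLC7A5 and is in 7.26% of promoters. The hypoxia core ACGTG, which every CACGTG contains, was found in SLC7A5, within its E-box, and in DDIT4, and is in 21.4%. None of these motifs was found in the STC2 window. The matches are shown 5′ to 3′ on the strand of the gene, with the matched bases in capitals.
SLC7A1 (chr13:29595663-29595692, minus strand): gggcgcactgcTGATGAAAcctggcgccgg
MARS (chr12:57488053-57488082, plus strand, core read on the opposite strand): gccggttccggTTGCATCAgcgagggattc
SLC7A5 (chr16:87869621-87869648, minus strand): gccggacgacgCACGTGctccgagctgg
DDIT4 (chr10:72273788-72273814, plus strand): gaacgttgcttACGTGcgcccggagtc
Counted from the RefSeq start site, the core began 7 bases after it in SLC7A1 and 4 bases before it in MARS, the E-box of SLC7A5 130 bases before it and the ACGTG of DDIT4 125 bases before it. The GENCODE transcripts given above start elsewhere for 3 of these genes. From the GENCODE start the core of MARS lay 107 bases downstream, inside the transcript, and the matches of SLC7A5 and DDIT4 began 149 and 121 bases upstream, while both annotations share the start of SLC7A1. The genes with the C/EBP-ATF core moved in opposite directions, SLC7A1 lower and MARS higher. A match describes these letters and not a bound site.

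For each member the transcripts with the most similar profile were found among 4299 other well expressed ones, by Euclidean distance of centred log2 values over the 6 libraries. SLC7A5 was nearest to UGT3A1 (distance 0.068) and HASPIN (0.11), and DDIT4 to CAVIN1 (0.079) and VAT1 (0.10). STC2 was nearest to the liver transcription factor FOXA3 (0.058) and to PEX14 (0.086), and SLC7A1 to PLAGL2 (0.063) and SOX13 (0.064). SLC7A11 was nearest to SVIP (0.087) and CTBS (0.091), PSPH to COG1 (0.039) and RAB7A (0.047), and MARS to LARP1 (0.035) and LINC01446 (0.053). No member had another member among its nearest profiles. Only the closest few of 4299 were kept for each, so this outcome was likely beforehand and nothing is read from it.

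The genes around the members are described by lists of the pathway. Coverage was partial: of 152 list genes with RefSeq entries 88 were in the table, 43 of 45 with 1 curated transcript and 45 of 107 with several. Between 50% and 72.7% of the tested genes of each list were called, beside 51.9% of all transcripts. ATF3, DDIT3, CHAC1, ASNS, PSAT1, SHMT2 and MTHFD2, all classical targets, are among the genes not analysed here.

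Upstream, both sensor kinases measured were higher and the eIF2 subunit they act on was lower. Of 11 tested genes for eIF2, its kinases and their regulators 3 rose and 3 fell, with a median log2 change of -0.08 beside 0.0018 for all transcripts. EIF2AK4, which encodes GCN2, had 1406, 1319 and 1399 normalized counts in knockdown libraries, against 790, 815 and 798 in scrambled libraries (log2 change 0.78, limma adjusted p = 3.08e-06). EIF2AK3, the endoplasmic reticulum kinase PERK, rose by 0.91 on the log2 scale and IMPACT, an inhibitor of GCN2, by 0.62. EIF2S1, the subunit of eIF2 that these kinases phosphorylate, had 517, 558 and 511 normalized counts in knockdown libraries, against 960, 1042 and 976 in scrambled libraries (log2 change -0.91, limma adjusted p = 2.12e-06). EIF2S3 (-0.19) and EIF2B5 (-0.21) also fell, but their calls were lost under other scalings and without single libraries, with limma adjusted p from 0.0304 to 0.887 for EIF2S3 and from 0.0267 to 0.732 for EIF2B5. With quantile normalization the change of EIF2S3 was 0.029.

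In the ATF4 network 1 of 7 tested genes rose and 3 fell (median -0.15). Those that fell were DDIT4, STC2 and GDF15, and the one that rose was SESN2. The ATF4 row, NM_001675, was read thinly, with 48, 56 and 43 reads in knockdown libraries, against 79, 45 and 58 in scrambled libraries. Its log2 change was -0.15 (limma adjusted p = 0.597) and 0.022 with equal totals. RefSeq lists 2 curated transcripts for ATF4 and 6 for TRIB3. The single row of each need not show the level or change of the whole gene. TRIB3, a pseudokinase induced by ATF4 that feeds back on it, was at 0.10 (limma adjusted p = 0.605) and at -0.067 without scrambled replicate 2. GDF15, a secreted stress hormone, had 421, 359 and 404 normalized counts in knockdown libraries, against 1178, 842 and 989 in scrambled libraries (log2 change -1.33, limma adjusted p = 1.60e-06). SESN2, which restrains mTORC1 as a leucine sensor, went the other way with 1080, 912 and 1132, against 600, 557 and 549.8 (log2 change 0.87, limma adjusted p = 1.04e-05).

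Of 11 tested amino acid transporters 4 rose and 2 fell (median 0.25). The 2 that fell were SLC7A5 and SLC7A1. With SLC7A11 rose SLC1A1 (1.04), a carrier of glutamate and cysteine, SLC36A1 (0.67), a proton-coupled carrier of small amino acids, and SLC43A1 (0.55), a carrier of branched-chain amino acids. The groups overlapped for SLC43A1, with 166, 267 and 300.2 normalized counts in knockdown libraries, against 164, 134 and 192 in scrambled libraries. Its call was lost without knockdown replicate 2 or 3 or scrambled replicate 1 or 2, with limma adjusted p between 0.0667 and 0.153, and with voom weights (0.0513).

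Among 8 tested genes of amino acid synthesis PSPH was the only one that rose, and 3 fell (median -0.63). PHGDH, the first enzyme of serine synthesis, had 8852, 7889 and 8347 normalized counts in knockdown libraries, against 8476, 8125 and 7870 in scrambled libraries, a log2 change of 0.04 (limma adjusted p = 0.708). With equal totals it was 0.21 (limma adjusted p = 0.0152) and with quantile normalization 0.25 (limma adjusted p = 0.00649). MTHFD1, which links serine-derived carbon to folate, fell by 0.98 on the log2 scale and GOT1, the cytosolic aspartate aminotransferase, by 0.79. GLUL, glutamine synthetase, fell by 0.96 on its row NM_002065, with 12, 22 and 13 reads in knockdown libraries, against 37, 34 and 29 in scrambled libraries. The call of NM_002065 was lost with equal totals (limma adjusted p = 0.0650) and without knockdown replicate 1 or 3 or scrambled replicate 1 or 2 (0.0620 to 0.0976). Its other row, NM_001033056, fell by 1.53 (limma adjusted p = 0.0316), with 2, 12 and 11 reads, against 30, 17 and 25. Both rows were thinly read and need not show the whole gene.

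The tRNA synthetases did not move together. Of 11 tested genes for synthetases and their scaffold proteins 3 rose and 5 fell (72.7% called, beside 51.9% of all transcripts, and median -0.14). RARS, which charges arginine, had 2805, 3055 and 2749 normalized counts in knockdown libraries, against 1549, 1884 and 1788 in scrambled libraries (log2 change 0.72, limma adjusted p = 1.76e-05). EPRS, for glutamate and proline, had 2268, 2092 and 1991, against 3521, 4450 and 4108 (log2 change -0.92, limma adjusted p = 3.65e-06). MARS, RARS and EPRS are parts of the same multi-synthetase complex, and so are the scaffold proteins AIMP2 (-0.44) and EEF1E1 (-0.64). The falls of AIMP2 and EEF1E1 were lost with equal totals (limma adjusted p = 0.171 and 0.106). AIMP2 also lost its call without knockdown replicate 1 or 2 or scrambled replicate 2 or 3 (0.0797 to 0.111), and EEF1E1 without knockdown replicate 3 or scrambled replicate 2 or 3 (0.0679 to 0.146). YARS (-0.74) and FARSA (-0.40), for tyrosine and phenylalanine, fell as well. VARS, for valine, rose by 0.86 with overlapping groups, at 622, 579 and 258 normalized counts in knockdown libraries, against 262, 198 and 296 in scrambled libraries. Its call was lost without knockdown replicate 1 or 2 or scrambled replicate 2 (limma adjusted p = 0.0596 to 0.0662).

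**Figure D3:**
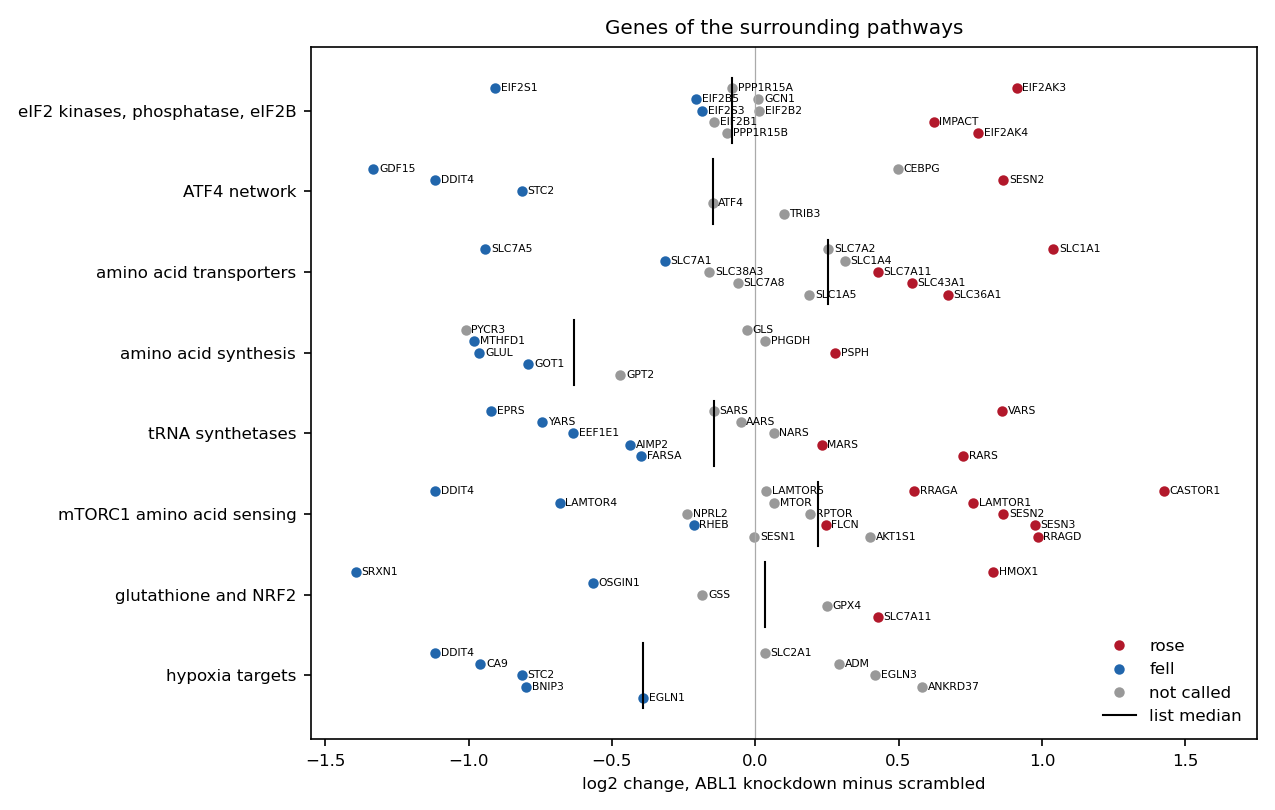
Log2 change, ABL1 knockdown minus scrambled (x axis), of every tested gene in 8 pathway lists, with a row for each list. Red points rose and blue points fell at a limma adjusted p under 0.05, grey points did not pass, and black lines are list medians. Each list except the hypoxia targets has called genes on both sides of 0.

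DDIT4 belongs to the genes that feed amino acid supply into mTORC1. Of 16 of these tested 7 rose, SESN2 among them, and 3 fell, DDIT4 among them (62.5% called, beside 51.9% of all transcripts), with a median of 0.22. CASTOR1, the arginine sensor, had 380, 358 and 418 normalized counts in knockdown libraries, against 157, 138 and 134 in scrambled libraries (log2 change 1.42, limma adjusted p = 9.48e-07). RRAGD, a Rag GTPase that recruits mTORC1 to the lysosome, had 1056, 1168 and 1032, against 521, 556 and 565 (log2 change 0.99, limma adjusted p = 1.26e-06). LAMTOR1, which anchors the Ragulator complex to the lysosome, rose by 0.76, RRAGA by 0.55 and SESN3 by 0.98, and FLCN rose by 0.25 with a call that was lost without knockdown replicate 1 or 2 or scrambled replicate 1 or 3 (limma adjusted p = 0.0669 to 0.191). LAMTOR4, another Ragulator subunit, fell by 0.68. RHEB, the direct activator of mTORC1, fell by 0.21, a call lost with every other scaling tried (limma adjusted p = 0.0507 to 0.702) and without knockdown replicate 1 or 3 or scrambled replicate 1 or 3 (0.0531 to 0.155).

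SLC7A11 is also a target of the oxidative stress factor NRF2. Of 6 tested genes of glutathione synthesis and the NRF2 response 2 rose and 2 fell (median 0.03). With SLC7A11 rose HMOX1, heme oxygenase, which had 871, 887 and 981 normalized counts in knockdown libraries, against 565, 485 and 491 in scrambled libraries (log2 change 0.83, limma adjusted p = 1.18e-05). SRXN1, sulfiredoxin, had 523, 432 and 485, against 1356, 1193 and 1234 (log2 change -1.39, limma adjusted p = 1.82e-07), and OSGIN1 fell by 0.57.

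DDIT4 and STC2 are hypoxia targets too. Of 9 tested hypoxia targets 5 fell, among them DDIT4 and STC2, and 0 rose by limma's adjusted test (median -0.39). This is 55.6% called, beside 51.9% of all transcripts, of which 27.4% fell. At an unadjusted p under 0.05 1 was higher (ADM) and 5 were lower. BNIP3, a mitophagy receptor, had 2741, 2883 and 2336 normalized counts in knockdown libraries, against 4608, 4893 and 4307 in scrambled libraries (log2 change -0.80, limma adjusted p = 9.09e-06). EGLN1, an oxygen-sensing prolyl hydroxylase, fell by 0.39 and CA9, a carbonic anhydrase, by 0.96. CA9 lost its call without knockdown replicate 3 (limma adjusted p = 0.0573) or scrambled replicate 1 (0.0736). At equal totals 2 hypoxia targets rose, and 5 fell.

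**Figure D4:**
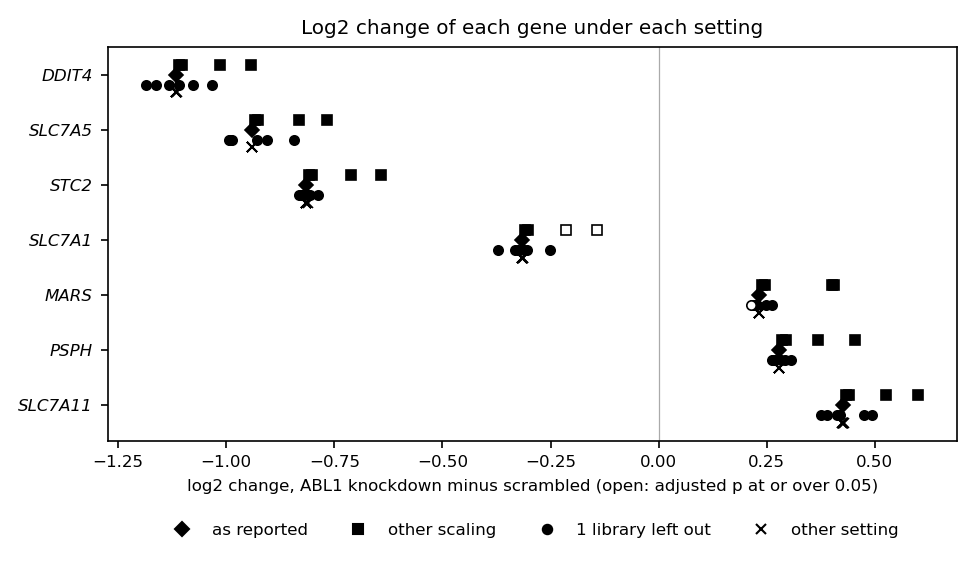
Log2 change of each gene, ABL1 knockdown minus scrambled (x axis), as reported (diamonds), with other library scalings (squares), with 1 library left out (circles) and with other settings (crosses). Open symbols have a limma adjusted p of 0.05 or more, which are SLC7A1 with equal totals (-0.14) and quantile normalization (-0.21) and MARS without knockdown replicate 1 (0.21). No gene changes side.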

How the data were processed

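Per the submitters' processing notes, HISAT2 2.0.4, HTSeq 0.6.1 and build hg38 were used, with no role or order given. The annotation, strand setting and row filter are unstated. The deposited signal values behave as a scaled square root of the read count plus 0.375. Squaring, dividing by each library's step and subtracting 0.375 gave whole reads within 0.05 for 100% of the 10191 rows in each library. These reads were put back on the authors' scale (normalized counts). Rows with a mean of at least 10 (8600) were tested with limma 3.58.1 (lmFit, eBayes with trend, R 4.3.3) on log2(normalized count + 1), ABL1 knockdown against scrambled, two-sided, adjusted by Benjamini-Hochberg with a threshold of 0.05. Recovery and fit were also run on data simulated with the same square root form. That run cannot test whether the form holds for the deposited values. Positions and lengths came from GENCODE 29 (GRCh38).

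The members, gene lists and tests were chosen with earlier results of these data known. Named genes were the members, a set of core response genes, and up to 6 called genes of each list by smallest p. RRAGA, SESN3, FLCN, RHEB, AIMP2, EEF1E1, AARS, the pseudogenes and SLC7A10 were named after their values were seen. List genes entered with their most abundant tested transcript. Alternatives covered pseudocount, filter, scaling, test, replicate block and each left-out library.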

Additional observations from a re-analysis of the deposited data

How the results depend on the processing

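All 7 members kept their direction under every alternative run, and 5 (SLC7A5, SLC7A11, PSPH, DDIT4 and STC2) also kept their call. SLC7A1 lost its call with equal totals (-0.14) and quantile normalization (-0.21), and MARS without knockdown replicate 1. With 1 library left out, log2 changes were -0.99 to -0.84 for SLC7A5, -0.37 to -0.25 for SLC7A1, 0.38 to 0.49 for SLC7A11, 0.26 to 0.31 for PSPH, 0.21 to 0.26 for MARS, -1.19 to -1.03 for DDIT4 and -0.83 to -0.79 for STC2. Over all transcripts 2105 rose and 2355 fell (47.2% of calls rising), against 2967 and 1699 with equal totals (63.6% rising). With 1 library left out 1838 to 1959 rose and 2055 to 2209 fell.

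List counts moved by more than 1.5 times as follows. With equal totals 1 eIF2 gene, 1 transporter and 3 synthetase genes fell, and 2 synthesis genes and 2 hypoxia targets rose. With quantile normalization 1 eIF2 gene and 1 transporter fell and 2 synthesis genes rose, and with trimmed mean scaling 1 eIF2 gene fell. With a replicate block 5 synthesis genes fell and 1 hypoxia target rose. With 1 library left out 1 to 2 eIF2 genes and 3 to 5 synthetase genes fell, and 1 to 3 synthetase genes and 0 to 1 hypoxia targets rose. The cause was not tested.

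Values changed sign for 5 genes that were not called or weakly called with the authors' scale factors: ATF4 with equal totals (0.022), EIF2S3 with quantile normalization (0.029), AARS with equal totals (0.12) and quantile normalization (0.20), PHGDH without knockdown replicate 1 (-0.0067, up to 0.076 without others) and TRIB3 without scrambled replicate 2 (-0.067, up to 0.24 without others). AARS, at -0.05 with the authors' factors (limma adjusted p = 0.582), was called higher with quantile normalization (limma adjusted p = 0.0187). The same-numbered libraries deviated together only weakly (r = 0.047, 0.077 and 0.077), so the numbers were not taken as pairs, and not every library correlated best with its own number. The replicate block gave 4821 calls, against 4460 without it, and all 7 members kept their calls. The edgeR and DESeq2 tests were not run. The deposited values are square roots of scaled counts, from which whole reads were recovered. Of count-based alternatives only voom was run on the recovered reads. Members had 428 to 5222 reads per library, while the single rows of SLC3A2 and ATF4 were too thinly read to show modest changes.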

Other observations

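SLC7A10, a further carrier of the SLC7 family that transports small neutral amino acids, had 940 ± 119 normalized counts in knockdown libraries and 1328 ± 57.2 in scrambled libraries (SD, n = 3 each). Its log2 change of -0.51 passed the test (limma adjusted p = 0.000849) and lay between those of SLC7A5 and SLC7A1. Other carriers of the family did not fall. SLC7A8 (-0.06, limma adjusted p = 0.774) and SLC7A2 (0.25, limma adjusted p = 0.563) were not called, and SLC7A11 rose.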
